A study of Mus musculus with 8 samples.

Results

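Transcripts of 10 neutrophil and acute-phase antimicrobial genes were followed in the lungs of mice with and without ovalbumin (OVA)-induced allergic airway inflammation. The genes were S100a8, S100a9, Lcn2, Saa1, Saa2, Saa3, Ltf, Csf3r, Cxcr2 and Retnlg, chosen by name out of 45616 genes or unnamed accessions on the array and read by 11 probes, 2 of them for Lcn2. All 10 passed the filter on dim probes. Lung RNA of 8 female BALB/c mice, bought at 4 weeks of age and housed for 2 weeks before the experiment, was hybridized to 8 single-color arrays on 1 slide, 1 mouse per array. Feeding lasted 70 days. NT mice received standard feed and no OVA. The other groups were injected intraperitoneally with OVA adsorbed to alum and then inhaled OVA aerosol, while eating standard feed (Ctrl-F), feed with carbonate apatite particles that hold no oligodeoxynucleotide (Cap-F) or feed with the same particles holding a CpG-oligodeoxynucleotide, a ligand of Toll-like receptor 9 (ODNcap-F). Each group had 2 mice.

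Neutrophils leave the bone marrow with their granules already filled, and granulocyte colony-stimulating factor and the chemokines that bind CXCR2 govern their release and their entry into tissue. Their cytosol is rich in calprotectin, the zinc-binding pair of S100A8 and S100A9, and their secondary granules hold lactoferrin (Ltf) and lipocalin 2 (Lcn2), which keep iron from bacteria. Serum amyloid A proteins (Saa1, Saa2 and Saa3) are acute-phase apolipoproteins made by the liver and, for Saa3 above all, by macrophages and epithelium at the inflamed site. Airway epithelium also makes lipocalin 2 and lactoferrin, so these genes are not markers of neutrophils alone.

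Values are log2 intensities after quantile normalization over the 8 arrays, and a log2 difference of 1 is a 2-fold change. Levels are compared between mice for 1 probe at a time, because probes of different genes differ in brightness. All arrays entered 1 limma fit, and a gene was called where the adjusted p was under 0.05 and the change over 2-fold. With 2 mice against 2, an exact two-sided permutation test cannot give a p below 0.333. The calls therefore rest on limma's variance for each gene, pooled over the 4 groups and drawn partly toward that of other genes. On the slide, row 1 held the NT and Ctrl-F arrays and row 2 the others, so row and group cannot be told apart wherever a comparison crosses rows. Ctrl-F against NT, and ODNcap-F against Cap-F, stayed within a row. The groups of a row held separate columns, so column and group cannot be told apart in these comparisons. The labelled tissue was borne out by high Sftpc, a surfactant gene of type 2 alveolar cells (17.60 to 17.64 on all arrays). Quantile normalization evens out the brightest probes between arrays, so the narrow range itself says nothing about the samples.

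The 10 genes split after OVA challenge. Saa1, Saa2, Saa3, Lcn2, Ltf and Retnlg were called higher in all OVA-challenged groups compared to NT. S100a8, S100a9 and Csf3r were below NT in every OVA-challenged mouse, and only S100a9 in ODNcap-F passed the threshold among them. Cxcr2 was above NT in every OVA-challenged mouse by less than 2-fold. In Ctrl-F against NT, 6 members were called higher and 0 lower, where 22.8% of the 28985 genes tested were called, 10.5% higher and 12.2% lower. In Cap-F against NT the counts were 6 and 0, beside 19.6% of all genes called, 9.74% higher and 9.86% lower. In ODNcap-F against NT they were 6 and 1, beside 20.7%, of which 9.86% were higher and 10.8% lower. The median log2 difference of the 10 genes was 2.29 for Ctrl-F, 2.35 for Cap-F and 2.50 for ODNcap-F, beside medians of -0.12, -0.11 and -0.12 over all genes tested. These 3 comparisons share the same 2 NT mice.

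The groups did not overlap for any member when an OVA-challenged group was set against NT. In each of those groups both mice were above both NT mice for 7 members and below for 3. Such separation was common on these arrays. Both mice were above NT for 35.5% of all genes with Ctrl-F, 34.4% with Cap-F and 34.2% with ODNcap-F, and below NT for 48.5%, 47.8% and 48.1%. All 6 OVA-challenged mice lay above both NT mice for 28.9% of genes and below for 40.6%. A lack of overlap is therefore no result about the members by itself.

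**Figure D1:**
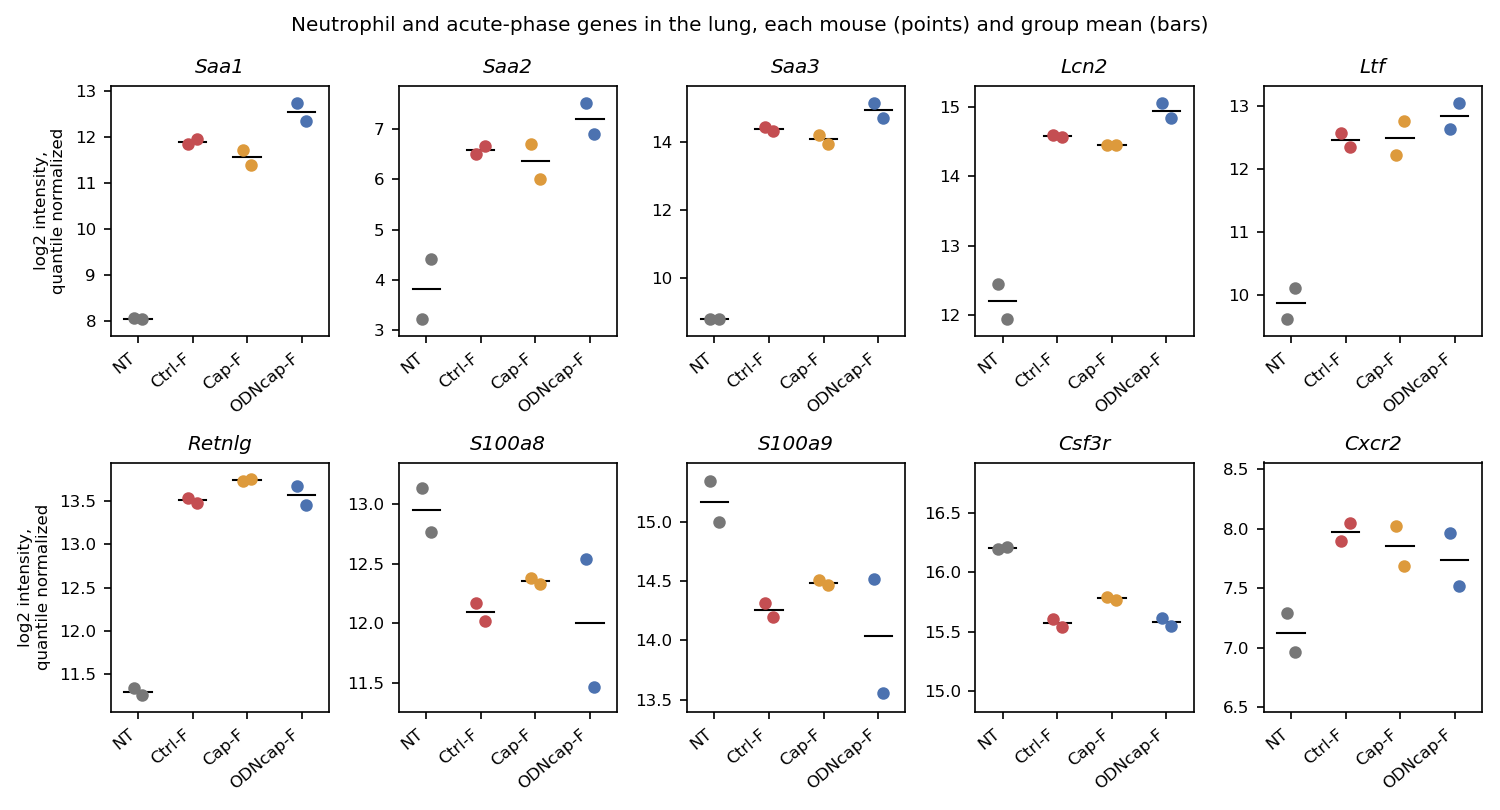
Log2 intensity (y axis, quantile normalized, a scale of its own for each gene) of the 10 genes in each of 8 mice (points) by group (x axis), with the group mean as a bar, n = 2 mice per group. For Saa1, Saa2, Saa3, Lcn2, Ltf and Retnlg both NT mice lie far below the 6 OVA-challenged mice, for Cxcr2 they lie slightly below, and for S100a8, S100a9 and Csf3r they lie above.

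Saa3, the serum amyloid A gene expressed mainly outside the liver (NM_011315, GRCm38.p6 chr7:46711998-46719615), changed most among the members. Its log2 values were 8.79 in both NT mice, 14.47 and 14.34 in Ctrl-F, 14.22 and 13.96 in Cap-F, and 15.17 and 14.72 in ODNcap-F. The NT mice were nearly equal and far below the others. The log2 fold change against NT was 5.61 in Ctrl-F (48.9-fold, SE 0.17, adjusted p = 8.60e-06), 5.30 in Cap-F (39.3-fold, adjusted p = 1.15e-05) and 6.15 in ODNcap-F (71.1-fold, adjusted p = 7.31e-06). Saa1 (NM_009117, chr7:46740497-46743181), an acute-phase form that circulates on lipoproteins, had values of 8.05 in both NT mice, 11.85 and 11.94 in Ctrl-F, 11.71 and 11.38 in Cap-F, and 12.74 and 12.34 in ODNcap-F. It showed the same arrangement of groups as Saa3 on a smaller scale. Its log2 fold change against NT was 3.85 in Ctrl-F (14.4-fold, SE 0.16, adjusted p = 2.58e-05), 3.50 in Cap-F (11.3-fold, adjusted p = 4.12e-05) and 4.49 in ODNcap-F (22.4-fold, adjusted p = 1.73e-05). Saa2 (NM_011314, chr7:46751833-46754313), the neighbor and close copy of Saa1, was dimmer and gave 3.22 and 4.42 in NT mice, 6.51 and 6.66 in Ctrl-F, 6.70 and 6.02 in Cap-F, and 7.53 and 6.90 in ODNcap-F. The first NT value was not well above background, so the NT mean is less certain than for the other members. The log2 fold change of Saa2 was 2.76 in Ctrl-F (6.78-fold, SE 0.45, adjusted p = 0.00273), 2.54 in Cap-F (5.80-fold, adjusted p = 0.00430) and 3.39 in ODNcap-F (10.5-fold, adjusted p = 0.00129). With normexp background correction these came to 1.0, 0.90 and 1.37, and the Cap-F difference was then under 2-fold. RefSeq lists Saa1 and Saa2 as synonyms of each other, and the probes' own sequences were not analysed here, so which of the copies each probe reads is uncertain.

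The promoters of the called serum amyloid A genes and Lcn2 are shown because the pathways best known for these genes act there through C/EBP, NF-kB and STAT proteins. Each sequence is the 250 bases before the start of the transcript that RefSeq's promoter table uses (GRCm38.p6), which for Saa1 and Saa3 lies inside the gene span given above, printed 5′ to 3′ on the gene's own strand, with capitals marking any match to the C/EBP letters TTGCNNAA or their reverse complement TTNNGCAA.
Saa1 (chr7:46742981-46743230, minus strand): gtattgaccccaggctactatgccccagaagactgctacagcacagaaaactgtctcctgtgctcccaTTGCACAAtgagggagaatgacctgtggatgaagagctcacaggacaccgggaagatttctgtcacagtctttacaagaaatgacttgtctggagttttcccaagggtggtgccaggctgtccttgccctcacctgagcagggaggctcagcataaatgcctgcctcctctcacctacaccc
Saa2 (chr7:46751583-46751832, plus strand): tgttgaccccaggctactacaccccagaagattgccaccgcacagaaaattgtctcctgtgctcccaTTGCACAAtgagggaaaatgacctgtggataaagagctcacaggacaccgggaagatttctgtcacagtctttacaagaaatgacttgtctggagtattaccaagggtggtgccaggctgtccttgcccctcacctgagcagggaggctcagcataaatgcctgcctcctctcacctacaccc
Saa3 (chr7:46715677-46715926, minus strand): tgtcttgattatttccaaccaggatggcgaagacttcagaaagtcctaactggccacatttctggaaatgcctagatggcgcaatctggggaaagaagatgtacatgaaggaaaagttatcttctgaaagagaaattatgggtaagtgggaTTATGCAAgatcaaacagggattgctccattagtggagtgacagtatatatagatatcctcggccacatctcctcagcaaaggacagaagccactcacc
Lcn2 (chr2:32387740-32387989, minus strand): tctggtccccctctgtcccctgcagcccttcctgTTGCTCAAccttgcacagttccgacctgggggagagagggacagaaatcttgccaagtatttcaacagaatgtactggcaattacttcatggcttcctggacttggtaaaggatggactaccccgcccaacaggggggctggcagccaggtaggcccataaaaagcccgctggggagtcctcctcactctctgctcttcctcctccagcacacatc
The Saa1 and Saa2 sequences were identical at 238 of 251 aligned positions (94.8%) and held the same 8 letters at nearly the same place, from positions -182 and -183, where -1 is the last base before the start. Saa3 and Saa1 were identical at 48.5% of aligned positions, and the match in Saa3 began at -99. The Lcn2 match began at -216. All 10 members had a promoter in the table. C/EBP letters occurred in 7 of 10 member promoters (S100a9, Lcn2, Saa1, Saa2, Saa3, Ltf and Retnlg) and in 9.56% of all 32851 promoters of this length. The NF-kB motif (GGG, any 3 bases, then TTCC), searched on both strands, occurred in 1 of 10 (Csf3r) and in 4.65% of all promoters. The STAT letters TTCNNNGAA, which read the same on both strands, occurred in 0 of 10 and in 7.02% of all promoters. No match of one motif overlapped a match of another. The C/EBP letters were present in 6 of the 6 genes called higher and also in S100a9, which was lower, and a match of letters is a description and not a binding site.

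Lipocalin 2, the siderophore-binding protein encoded by Lcn2 (NM_008491, chr2:32384637-32387739), was measured by 2 probes. The brighter probe gave 12.46 and 11.95 in NT mice, 14.60 and 14.56 in Ctrl-F, 14.46 and 14.45 in Cap-F, and 15.06 and 14.84 in ODNcap-F. Every OVA-challenged mouse was above both NT mice, and the Ctrl-F and Cap-F pairs were each nearly identical. The log2 fold change against NT was 2.38 in Ctrl-F (5.21-fold, SE 0.17, adjusted p = 0.000136), 2.25 in Cap-F (4.76-fold, adjusted p = 0.000196) and 2.75 in ODNcap-F (6.71-fold, adjusted p = 9.95e-05). The dimmer probe gave 2.46, 2.29 and 2.81, so the probes did not disagree. Lactoferrin, the iron-binding protein encoded by Ltf (NM_008522, chr9:111019292-111042766), stood at 9.62 and 10.11 in NT mice, 12.56 and 12.35 in Ctrl-F, 12.21 and 12.76 in Cap-F, and 12.63 and 13.05 in ODNcap-F. All 6 OVA-challenged mice were above NT, and the Cap-F pair overlapped both other feeds. Its log2 fold change was 2.59 in Ctrl-F (6.03-fold, SE 0.26, adjusted p = 0.000419), 2.62 in Cap-F (6.16-fold, adjusted p = 0.000476) and 2.97 in ODNcap-F (7.86-fold, adjusted p = 0.000292). Retnlg (NM_181596, chr16:48872608-48874498), a resistin-like gene of bone marrow and neutrophils, gave 11.34 and 11.26 in NT mice, 13.53 and 13.48 in Ctrl-F, 13.73 and 13.75 in Cap-F, and 13.67 and 13.45 in ODNcap-F. Mice of a group differed little, and all OVA-challenged mice were above NT. The log2 fold change of Retnlg was 2.21 in Ctrl-F (4.61-fold, SE 0.09, adjusted p = 2.39e-05), 2.44 in Cap-F (5.43-fold, adjusted p = 1.99e-05) and 2.26 in ODNcap-F (4.80-fold, adjusted p = 2.42e-05).

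**Figure D2:**
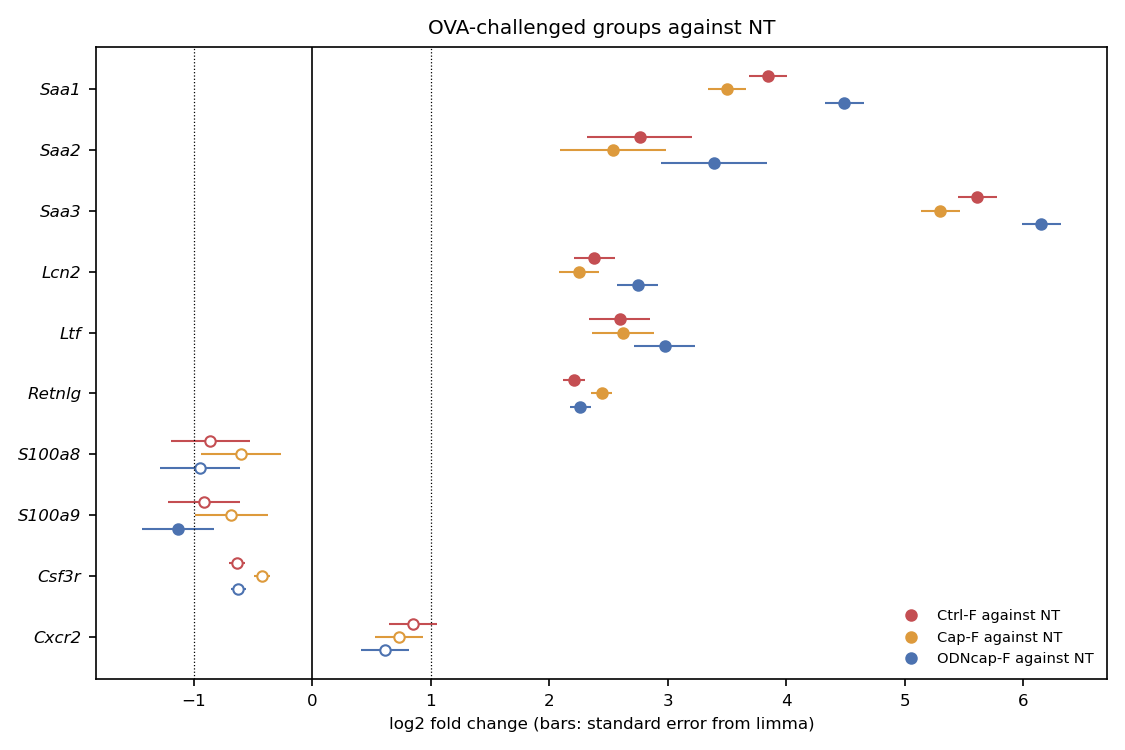
Log2 fold change of each member against NT (x axis) for the OVA-challenged groups, with the limma standard error as a bar and dotted lines at 2-fold. Filled points passed an adjusted p of 0.05 and 2-fold. Saa1, Saa2, Saa3, Lcn2, Ltf and Retnlg are filled and above 2 in all groups, S100a9 is filled below -1 in ODNcap-F, and the other values lie within 2-fold.

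S100a8 and S100a9, the calprotectin subunits, ran the other way. S100a9 (NM_001281852, chr3:90692630-90695721) gave 15.34 and 14.99 in NT mice, 14.31 and 14.20 in Ctrl-F, 14.51 and 14.46 in Cap-F, and 14.52 and 13.55 in ODNcap-F. All 6 OVA-challenged mice were below both NT mice, and ODNcap-F mouse 2 was the lowest. The log2 difference from NT was -0.91 in Ctrl-F (SE 0.30, adjusted p = 0.0412, under 2-fold), -0.68 in Cap-F (adjusted p = 0.104) and -1.13 in ODNcap-F (2.19-fold lower, adjusted p = 0.0204). The call in ODNcap-F rested on single mice and on the scaling. Without ODNcap-F mouse 2 the difference was -0.65 (adjusted p = 0.0253, under 2-fold), without NT mouse 1 it was -0.96 (adjusted p = 0.0997), and with scaling to the 75th percentile it was -0.82 (adjusted p = 0.0590). A fit of only the 2 groups kept the difference at -1.13 and gave an adjusted p of 0.0605. S100a8 (NM_013650, chr3:90669071-90670034) gave 13.14 and 12.77 in NT mice, 12.17 and 12.02 in Ctrl-F, 12.38 and 12.33 in Cap-F, and 12.54 and 11.47 in ODNcap-F. The arrangement was that of S100a9, with no overlap between NT and the other groups. Its log2 difference from NT was -0.86 in Ctrl-F (SE 0.34, adjusted p = 0.0682), -0.60 in Cap-F (adjusted p = 0.177) and -0.95 in ODNcap-F (adjusted p = 0.0517), and none was called. Without ODNcap-F mouse 1 the last came to -1.49 (adjusted p = 0.00298) and was called.

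The promoters of the calprotectin genes are shown for contrast with those above, cut and marked in the same way.
S100a8 (chr3:90668821-90669070, plus strand): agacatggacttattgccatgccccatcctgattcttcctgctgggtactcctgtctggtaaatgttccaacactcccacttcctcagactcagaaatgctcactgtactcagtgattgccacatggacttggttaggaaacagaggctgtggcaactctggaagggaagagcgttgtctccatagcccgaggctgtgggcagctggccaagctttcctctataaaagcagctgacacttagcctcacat
S100a9 (chr3:90695722-90695971, minus strand): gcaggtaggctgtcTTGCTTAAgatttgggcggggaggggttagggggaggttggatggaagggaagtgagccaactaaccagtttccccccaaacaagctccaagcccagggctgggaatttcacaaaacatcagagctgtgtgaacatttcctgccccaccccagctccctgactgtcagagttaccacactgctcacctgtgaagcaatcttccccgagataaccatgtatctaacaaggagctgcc
S100a8 held none of the 3 motifs, and S100a9 held the C/EBP letters from -236. Although the subunits form 1 protein complex and the genes are neighbors, their promoter sequences were identical at 45.5% of aligned positions.

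The receptors differed from each other. Csf3r (NM_007782, chr4:126023441-126044975), the receptor for granulocyte colony-stimulating factor, gave 16.20 and 16.21 in NT mice, 15.61 and 15.54 in Ctrl-F, 15.79 and 15.77 in Cap-F, and 15.62 and 15.55 in ODNcap-F. Its log2 difference from NT was small against the 2-fold threshold and large against its spread, at -0.63 in Ctrl-F (1.55-fold lower, SE 0.07, adjusted p = 0.000493), -0.42 in Cap-F (1.34-fold lower, adjusted p = 0.00268) and -0.62 in ODNcap-F (1.54-fold lower, adjusted p = 0.000576). Cxcr2 (NM_009909, chr1:74153994-74161246), the receptor for the CXC chemokines that draw neutrophils, gave 7.29 and 6.96 in NT mice, 7.90 and 8.05 in Ctrl-F, 8.03 and 7.69 in Cap-F, and 7.96 and 7.52 in ODNcap-F. All OVA-challenged mice were above NT. The log2 difference was 0.85 in Ctrl-F (1.80-fold, SE 0.20, adjusted p = 0.0124), 0.73 in Cap-F (1.66-fold, adjusted p = 0.0237) and 0.61 in ODNcap-F (1.53-fold, adjusted p = 0.0408). Without NT mouse 1 the Ctrl-F value was 1.01 (adjusted p = 0.0227) and was called. RNA of whole lung cannot tell fewer cells of a type from less RNA per cell.

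Among the OVA-challenged groups the question was whether the feeds differed. No member was called. In ODNcap-F against Ctrl-F, 0 of 10 members were called, beside 0.00% of all genes, and in ODNcap-F against Cap-F and Cap-F against Ctrl-F, 0 of 10 were called, beside 0.00345% each. With limma's unadjusted p under 0.05 and a fold over 2, the count of members was also 0 in all 3 comparisons, beside 0.652%, 0.642% and 0.973% of genes. The local-pooled-error test of the study's methods called 0 members as well, and 129, 105 and 140 genes in the same order. The smallest adjusted p of a member was 0.670, 0.191 and 0.233.

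The serum amyloid A genes and Lcn2 had their highest group mean in ODNcap-F and their lowest among the OVA-challenged groups in Cap-F. For Saa1 the ODNcap-F mean exceeded that of Cap-F by 0.99 on the log2 scale (95% interval 0.59 to 1.39, adjusted p = 0.191) and that of Ctrl-F by 0.64 (0.24 to 1.04, adjusted p = 0.670). For Saa3 the excess was 0.85 (0.45 to 1.26, adjusted p = 0.218) and 0.54 (0.13 to 0.95, adjusted p = 0.736). Each ODNcap-F mouse exceeded each Cap-F and Ctrl-F mouse for Saa1, Saa2, Saa3 and Lcn2, but none of these differences passed the adjustment over all genes. The intervals are for single genes and are not adjusted. They left out 0 for Saa1 and Saa3 in both comparisons and for Lcn2 against Cap-F. They held 0 for Saa2 in both comparisons and for Lcn2 against Ctrl-F. Saa2 gave 0.85 against Cap-F (interval -0.24 to 1.95) and Lcn2 gave 0.50 (0.08 to 0.92). Set against Ctrl-F, the ODNcap-F pair lay wholly above for 5 members and wholly below for 0, where 17.0% of all genes were above and 18.6% below. Against Cap-F the counts were 4 and 2, beside 21.0% and 24.7%. In Cap-F against Ctrl-F they were 4 and 3, beside 25.9% and 25.8%.

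The other members showed no common order of feeds. For Ltf the ODNcap-F mean exceeded the Ctrl-F mean by 0.38 (interval -0.25 to 1.02). The Cap-F mean exceeded the Ctrl-F mean by 0.21 for Csf3r (0.05 to 0.37, adjusted p = 0.233) and by 0.24 for Retnlg (0.01 to 0.46, adjusted p = 0.291). For the calprotectin genes the intervals were wide, since the ODNcap-F mice differed 2.10-fold in S100a8 and 1.95-fold in S100a9. The difference between ODNcap-F and Ctrl-F was -0.09 for S100a8 (interval -0.92 to 0.73) and -0.22 for S100a9 (-0.97 to 0.53), which leaves room for changes close to 2-fold in both. Between ODNcap-F and Cap-F it was -0.35 for S100a8 (-1.18 to 0.47) and -0.45 for S100a9 (-1.20 to 0.30). These intervals leave room for levels more than 2-fold lower. For Cxcr2 the difference between ODNcap-F and Ctrl-F was -0.24 (-0.73 to 0.26).

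**Figure D3:**
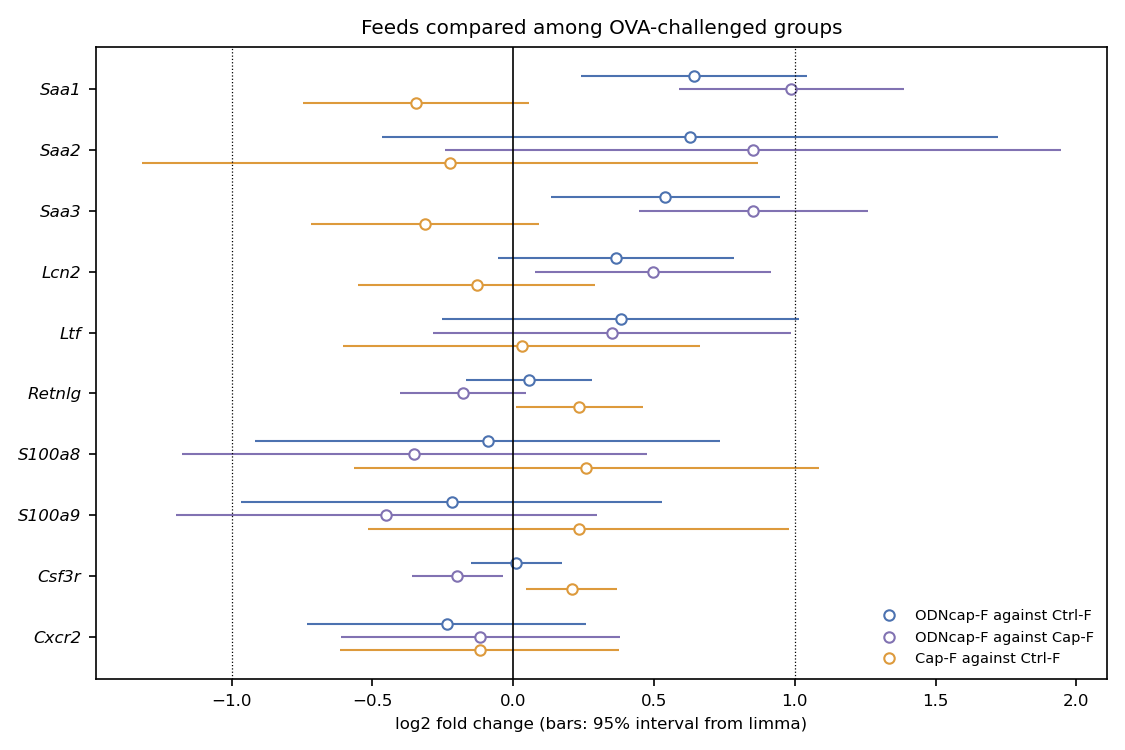
Log2 fold change of each member between feeds among the OVA-challenged groups (x axis), with the 95% interval from limma as a bar and dotted lines at 2-fold. All points are open because none was called. Saa1 and Saa3 lie to the right of 0 in both ODNcap-F comparisons, and the intervals of Saa2, S100a8 and S100a9 are the widest.

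Other neutrophil genes went both ways. Over all genes tested, 10.5% were called higher and 12.2% lower in Ctrl-F against NT. Of 26 surface and cytoplasmic genes tested, 5 were called higher, 4 lower and 17 were not called there. The higher ones were Il1r2 (3.53), a decoy receptor for interleukin 1, Lilrb4a (2.77), Cd177 (2.68), a neutrophil adhesion protein, Fcgr3 (2.32) and Itgb2 (1.92). The lower ones were the formyl peptide receptors Fpr1 (-4.01) and Fpr2 (-2.98), then Ifitm6 (-1.82) and Cxcr1 (-1.27), which lost its call without NT mouse 1 (adjusted p = 0.0676) or Ctrl-F mouse 2 (adjusted p = 0.0669). Fpr1 stood at 9.88 and 9.53 in NT mice, 5.80 and 5.59 in Ctrl-F, 6.34 and 6.06 in Cap-F, and 6.11 and 5.29 in ODNcap-F, a 16.1-fold lower level in Ctrl-F. The counts were 7 higher and 4 lower in Cap-F and 5 and 4 in ODNcap-F. Beside them stood 9.74% of all genes higher and 9.86% lower in Cap-F, and 9.86% and 10.8% in ODNcap-F. The median log2 difference of the list was 0.10, 0.13 and -0.04. Its mean level over the 26 genes ranged from 8.83 to 8.99 in NT, 9.04 to 9.09 in Ctrl-F, 9.07 to 9.15 in Cap-F and 8.85 to 9.14 in ODNcap-F, and part of that range overlapped NT in ODNcap-F. Ly6g had no probe and Csf3 was not above background in any group.

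Granule genes also went both ways. Of 18 tested besides Lcn2 and Ltf, 9 were called higher and 4 lower in Ctrl-F against NT, with equal counts for the other feeds. The shares of all genes given for the surface list stand beside these and the following counts. Slpi, a protease inhibitor also made by airway epithelium, was higher by 4.85, Chil3, a chitinase-like protein also made by macrophages, by 2.84, and Pglyrp1, a peptidoglycan recognition protein, by 2.56. Ncf4 was higher by 2.09. Ngp (-2.40) and Camp, the cathelicidin (-1.97), were lower, as were Hp (-1.32) and Lyz2 (-1.31). For the proteases and peroxidase of primary granules no call was made, and the log2 differences were 0.39 for Mpo, 0.13 for Elane and -0.73 for Ctsg. Ngp and Camp depended on single mice. Without NT mouse 1 their differences were -1.46 (adjusted p = 0.0175) and -1.05 (adjusted p = 0.0237). Without Ctrl-F mouse 1 they were -2.28 (adjusted p = 0.0655) and -1.84 (adjusted p = 0.0978) and were not called, and without Ctrl-F mouse 2 Camp was -2.09 (adjusted p = 0.0699) and not called. Among these secondary granule genes, Ltf and Lcn2 were thus above NT, and Camp and Ngp below it, in all 6 OVA-challenged mice.

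Of 21 other acute-phase genes, 12 were called higher and 5 lower in Ctrl-F, 11 and 4 in Cap-F, and 12 and 3 in ODNcap-F. Il1rn, the antagonist of the interleukin 1 receptor, was higher by 3.70, Serpina3n by 3.33, Orm2 by 2.66 and Orm1 by 1.90. Ptx3, a soluble pattern recognition protein, was above background on 0 of 2 NT arrays and on 1 of 2 Ctrl-F arrays, and was at least 1.93-fold higher in Ctrl-F. The lower genes in Ctrl-F were Orm3 (at least 5.23-fold), Hamp, which encodes the iron hormone hepcidin (at least 3.56-fold), Fgg (-1.72), Hpx (-1.41) and Hp (-1.32). Fgg lost its call without NT mouse 1 (-1.16, adjusted p = 0.0609) or Ctrl-F mouse 1 (-1.58, adjusted p = 0.0733), and Hamp without Ctrl-F mouse 1 (adjusted p = 0.0713). Fgg was well above background on only 1 of 2 Ctrl-F arrays, so its Ctrl-F mean is less certain. A bound is given where all arrays of a group were not well above background. Orosomucoid genes therefore differed within their family, with Orm1 and Orm2 higher and Orm3 lower. Crp, Apcs, Fga, Fgb and Saa4 were not above background in any group.

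Among 19 ligands and receptors of the members, 5 were called higher and 2 lower in each OVA-challenged group. The CXCR2 ligands Cxcl5 (5.92), Cxcl1 (2.21), Cxcl3 (at least 20.2-fold) and Cxcl2 (at least 2.73-fold) were higher in Ctrl-F, and the platelet ligand Ppbp was lower (-2.37). The formyl peptide receptor Fpr2, which is counted here too, was the other lower gene (-2.98). Cxcl5 stood at 5.05 and 6.30 in NT mice, 11.67 and 11.52 in Ctrl-F, 11.38 and 11.32 in Cap-F, and 12.06 and 11.13 in ODNcap-F. Itln1, an intelectin that binds lactoferrin, was higher by 6.34. The calprotectin receptors were not called, at 0.60 for Tlr4 and -0.84 for Ager. The lipocalin 2 receptors Slc22a17 (-0.97) and Lrp2 (0.13) were not called either. Each of these changes was under 2-fold, which is not the same as no change. Slc22a17 stood at 11.20 and 11.24 in NT mice and at 10.23 and 10.26 in Ctrl-F. Ager stood at 17.04 and 17.06 in NT mice and at 16.10 and 16.32 in Ctrl-F.

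Of 24 upstream cytokines and factors tested, 7 were called higher and 1 lower in Ctrl-F, 9 and 0 in Cap-F, and 7 and 1 in ODNcap-F. Cebpe, the C/EBP factor of late granulocyte development, was higher by 4.71 (26.1-fold, SE 0.11), from 8.39 and 8.20 in NT mice to 12.87 and 13.13 in Ctrl-F. Gfi1 was higher by 2.43, Spi1 by 1.98, and the cytokines Il6 by 3.92 and Osm by 2.29. Il6 was well above background on only 1 of 2 NT arrays, so its NT mean is less certain. Il6ra was lower (-1.06). The acute-phase factors Cebpb (-0.05), Cebpd (-0.33) and Stat3 (-0.13) were not called. Of 17 epithelial antimicrobial genes, 9 were called higher and 0 lower with standard feed, as with Cap-F, and 10 and 0 with ODNcap-F, among them Itln1, Duox1 (at least 37.5-fold), Retnla (5.43), Slpi and Bpifb1 (3.91) in Ctrl-F. Reg3g, a secreted C-type lectin, varied widely between mice of every group but Ctrl-F, from 6.20 and 9.12 in NT mice to 11.38 and 11.63 in Ctrl-F, 8.94 and 12.82 in Cap-F, and 12.46 and 14.47 in ODNcap-F, and passed in ODNcap-F (5.80, adjusted p = 0.0186) but not in Ctrl-F (3.85, adjusted p = 0.0702) or Cap-F (3.22, adjusted p = 0.120). Some genes stand in more than 1 list. No gene of these lists was called between feeds.

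**Figure D4:**
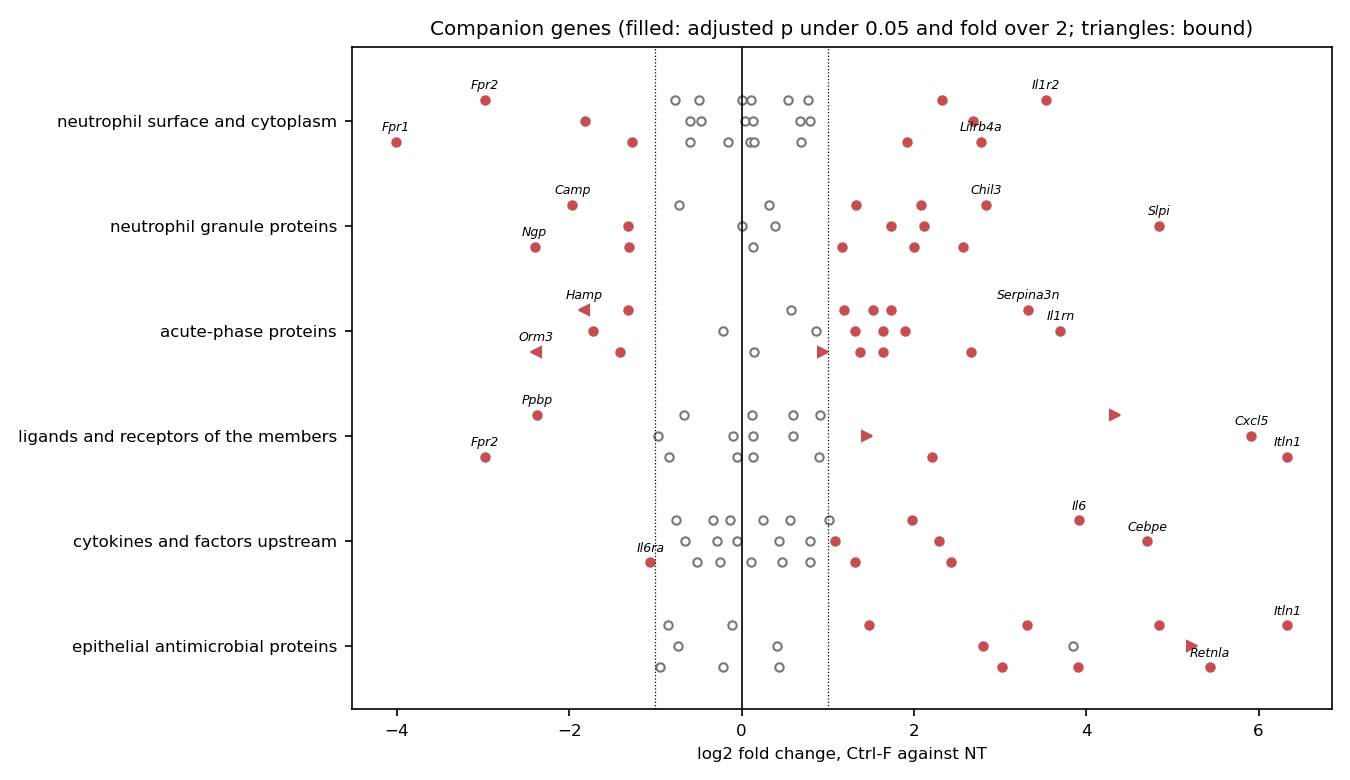
Log2 fold change of the companion genes in Ctrl-F against NT (x axis), 1 row per list, members left out. Filled points passed an adjusted p of 0.05 and 2-fold, open circles did not, triangles stand at a bound because 1 group was not above background, and dotted lines mark 2-fold. The neutrophil lists hold called genes on both sides of 0, such as Fpr1 and Il1r2 or Ngp and Slpi, and the epithelial list holds called genes on the right side only.

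Markers of other cells moved with OVA challenge as well, and their part in the values above was not tested. Called higher in Ctrl-F against NT were 7 of 8 eosinophil markers, 6 of 10 macrophage, 5 of 6 B and plasma cell, 3 of 7 monocyte, 4 of 8 airway secretory, 2 of 6 mast cell and 1 of 5 T cell markers. Called lower were 4 of 7 markers of alveolar type 1 and endothelial cells, 3 of 5 of red blood cells, 2 of 8 airway secretory, 1 of 10 macrophage and 1 of 7 monocyte markers, and 0 of 8 type 2 alveolar markers were called. Over all genes tested, 10.5% were called higher and 12.2% lower. The mean log2 level of the eosinophil list ranged from 7.45 to 7.79 in NT and from 10.29 to 10.66 over the OVA-challenged mice, and its defining marker Epx was not above background in NT. The macrophage list ranged from 10.37 to 10.50 in NT and from 11.32 to 11.62 in the others. Of 6 hepatocyte markers tested, Alb was lower (-1.23), Apob was higher (at least 6.35-fold) and 4 were not called, while Ttr and Apoa1 were not above background. Alb was well above background on only 1 of 2 Ctrl-F arrays, so its Ctrl-F mean is less certain.

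The genes whose values over the 8 arrays were most like those of 3 members were found among 16555 named genes, as a description that mostly carries the split between NT and the other mice. For Saa3 they were Hrh1, Hebp2 and Orc1, each with a Pearson r of 0.998, and for Lcn2 they were Hmgb3 (0.997), Adam10 (0.996) and BC004004 (0.995). For S100a9 they were Ankzf1 (0.984), Dipk2b (0.974) and Gm39888 (0.971).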

How the data were processed

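Lung RNA was labeled with Cy3 and hybridized to 1 array per mouse. The authors deposited, per array, the background-subtracted intensity of each of 59305 spots from Agilent Feature Extraction 11.0, a version given in the submitters' processing notes, together with quantile-normalized log2 values for 32312 probes. The latter lack Saa2. Names came from RefSeq accessions and matched 58.3% of probes.

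Here, 792 flagged spot values were dropped, intensities were put on the log2 scale, averaged per probe and quantile normalized over 8 arrays. A probe was kept if well above background on every array of at least 1 group (37116 of 56605). The brightest probe stands for a gene. Between 61.3% and 65.0% of probes per array were well above background, and none was saturated. Precision is limited by how few arrays there were.

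A single limma 3.58.1 fit covered the 4 groups (R 4.3.3) without covariates, with Benjamini-Hochberg adjustment over kept probes. It had 4 residual degrees of freedom, and the prior added 1.96. Bounds set the dimmer group, per array, at its own value or, where higher, at the dimmest probe signal well above background there (log2 3.61 to 4.18). Whether mice shared a cage is not given in the sources used here. Fits were tested on simulated data.

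Named were all members, up to 5 companion genes per list and direction with the largest change in Ctrl-F, and 3 genes most like S100a9, Lcn2 and Saa3. A granule gene that meets this rule is not reported here. Other genes named were chosen after their values were seen. Members and lists were chosen with earlier results of these data known. Alternatives were other scalings, background corrections, filters and tests, the deposited table, the replicate number as a block, and each array left out.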

Additional observations from a re-analysis of the deposited data

How the results depend on the processing

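Over 20 other settings, members called against NT numbered 5 to 9 in Ctrl-F, 5 to 8 in Cap-F and 6 to 9 in ODNcap-F, and 0 between feeds. Leaving out 1 mouse gave 6 to 7, 6 to 6 and 6 to 8. Of 594 single member values against NT, 580 kept their direction and side of the threshold, 5 lost the call, 9 gained it and 0 turned. The gained calls beyond those in the report came from dropping the fold threshold, which called Csf3r and Cxcr2 in all groups and S100a9 in Ctrl-F. The deposited table and a filter on all 8 arrays gave no value for Saa2.

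Small differences between feeds turned in sign. With 75th percentile scaling, Csf3r in ODNcap-F against Ctrl-F came to -0.020 and Ltf in Cap-F against Ctrl-F to -0.060. Over fits without 1 mouse, ODNcap-F against Ctrl-F ranged from -0.63 to 0.44 for S100a8 and -0.70 to 0.26 for S100a9 (positive without ODNcap-F mouse 2), from -0.025 to 0.046 for Csf3r (-0.025 without Ctrl-F mouse 2, -0.024 without ODNcap-F mouse 1) and from -0.053 to 0.17 for Retnlg (negative without ODNcap-F mouse 1). ODNcap-F against Cap-F ranged from -0.89 to 0.19 for S100a8, -0.93 to 0.032 for S100a9 and -0.34 to 0.11 for Cxcr2 (positive without ODNcap-F mouse 2, and for Cxcr2 also 0.054 without Cap-F mouse 1). Cap-F against Ctrl-F ranged from -0.57 to 0.12 for Saa2, -0.29 to 0.051 for Cxcr2 and -0.24 to 0.30 for Ltf (turned without Cap-F mouse 2, and for Ltf also -0.076 without Ctrl-F mouse 2). For the scaling the cause was not tested.

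Genes called over all genes against NT numbered 6599, 5682 and 5994, but 3552, 3048 and 3146 with normexp correction and 17936, 16392 and 17384 with no fold threshold. Between feeds, limma called 0, 1 and 1 genes, the local-pooled-error test 129, 105 and 140, an unadjusted p 189, 186 and 282, no filter 8, 9 and 8, an intensity trend 17 in Cap-F against Ctrl-F, and fits without 1 mouse 0 to 7. Companion genes called in Ctrl-F numbered 58, and 89 with no fold threshold, and without 1 NT or Ctrl-F mouse 51 to 58 of them were still called. Tnf and Nfkb2 were among those that lost the call, besides the genes named above.

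Correlations over probes of same-numbered deviations lay between -0.012 and 0.16. With 2 mice per group they cannot show whether mice were paired by cage or handling. With the replicate number as a block, 6, 6 and 7 members were called against NT and 0 between feeds.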

Other observations

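Single mice stood apart in neutrophil genes, noticed after the values were seen and not tested. The mean level of the 26 surface and cytoplasmic genes was 8.85 in ODNcap-F mouse 2 and 9.14 in ODNcap-F mouse 1. ODNcap-F mouse 2 was below ODNcap-F mouse 1 in Stfa1 (5.65 against 7.21), Stfa2l1 (6.92 against 7.72) and Mmp9 (6.98 against 7.48), the direction in which its S100a8 and S100a9 values also differed. Slfn4 of the same list went the other way (6.33 against 5.21), and Cd177 was nearly equal (8.02 against 7.95). In Cxcl5 ODNcap-F mouse 2 was likewise lower (11.13 against 12.06), while in Ltf it was higher (13.05 against 12.63). Its mean level was also lower for the granule, monocyte, eosinophil (10.29 against 10.66) and T cell (10.22 against 10.53) lists. It was higher for the macrophage, mast cell (7.25 against 6.89) and B and plasma cell lists.

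NT mouse 1 was above NT mouse 2 in Ngp (8.08 against 6.19), Camp (10.54 against 8.70) and Mpo (7.91 against 6.12), genes of developing or newly released neutrophils, and in Mcpt8 (7.83 against 5.19), a basophil protease gene. In S100a8 and S100a9 the same mouse was higher by 0.37 and 0.35, and it was higher in the primary granule protease gene Ctsg (6.17 against 4.85). Elane, a protease gene of developing neutrophils, was equal (7.76 against 7.75), but it ranged only from 7.75 to 7.97 over the 8 arrays. Ltf was lower in NT mouse 1 (9.62 against 10.11). Both NT mice were still above all 6 OVA-challenged mice in Ngp and Camp, whereas Mpo overlapped.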
